A study of Mus musculus with 32 samples.

Results

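The comparison described here sets the m6A immunoprecipitation (IP) libraries of hepatectomised Mettl14 KO livers against those of sham-operated Mettl14 KO livers. It was chosen by library type, genotype and surgery, and it holds 8 of the 32 libraries of the series, 4 in each group. The hepatectomy KO group was liver of Mettl14 KO mice after hepatectomy, and the sham KO group was liver of Mettl14 KO mice after the control operation. In both groups replicates 1 to 3 were aged 73 days and replicate 4 was aged 72 days, so both groups share the deletion and the ages. The flox mice, used below for the difference between genotypes, were aged 73, 73, 72 and 72 days in the hepatectomy group and 77, 77, 71 and 73 days in the sham group, so that age differed between surgeries in flox. The whole series has 16 mice in 4 groups, Mettl14 KO or flox control and hepatectomy or sham, and each liver gave an IP library and an input library of bulk RNA. The promoter or cell type of the Cre, the sex, the strain and the time between operation and sampling are unstated in the labels, and nothing says whether samples came from separate litters.

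N6-methyladenosine (m6A) is a methyl mark placed on adenosines of mRNA by a complex in which METTL3 is the catalytic subunit and METTL14 its RNA-binding partner. Reader proteins bind the mark and steer splicing, translation and decay of the transcript. After partial hepatectomy the hepatocytes that are left leave quiescence, copy their DNA and divide, while the liver keeps making plasma proteins, bile acids and urea. An IP count follows both how much of a transcript is present and how much of it the antibody pulls down, so an IP difference is not by itself a difference in methylation.

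The IP libraries held 17171495, 19509035, 16505974 and 7133766 counts in hepatectomy KO livers, against 16786891, 14887189, 18291772 and 24297854 counts in sham KO livers. Replicate 4 stood apart in both groups. In the hepatectomy KO group it had the lowest total and 6676 genes with at least 10 counts, against 10408 to 13200 in the other 3 libraries of its group. In the sham KO group it had the highest total and 16846 such genes, against 11013 to 11819 in the others. The number of such genes averaged 10600 in hepatectomy KO and 12800 in sham KO libraries, and the difference did not pass an exact 2-sided permutation test (p = 0.4, n = 4 each). Results that rest on replicate 4 are given with and without it. Mitochondrial transcripts took 18.75%, 16.37%, 24.14% and 8.62% of counts in hepatectomy KO libraries, against 14.42%, 9.8%, 11.78% and 7.95% in sham KO libraries. Hepatocyte markers filled both groups: the 12 markers of the hepatocyte list summed to 24800 to 74800 CPM in hepatectomy KO and 56900 to 88800 CPM in sham KO libraries. CPM here is the count per 1000000 counts of a library's total, and fold changes come from a model with TMM scaling.

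Mettl14 itself, the deleted gene, could not check the genotype labels. It had counts of 0, 60, 0 and 0 in the hepatectomy KO IP libraries and 0, 38, 0 and 52 in the sham KO IP libraries, which are mean levels of 0.769 ± 1.54 CPM and 1.17 ± 1.37 CPM (SD, n = 4 each). A count of 0 allows up to 0.421 CPM in the smallest of these libraries (3 counts, counting error only). The groups overlapped, and the difference did not pass an exact 2-sided permutation test (p = 1.0). In the flox IP libraries the counts were 33, 0, 22 and 9 after hepatectomy and 0, 124, 0 and 86 after sham, and in all 16 input libraries of both genotypes Mettl14 was counted at 0. Which exons the allele deletes is not given in the sources used here, so these whole-gene counts show neither a loss nor its absence.

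Most genes that passed in the IP of hepatectomised KO livers were lower, many of them genes of liver function. Of 14020 genes tested, 89 passed the threshold (edgeR quasi-likelihood test, Benjamini-Hochberg adjusted p under 0.05): 82 fell, which is 0.585% of the genes tested, and 7 rose, which is 0.0499%. Every one of the 89 differed by over 1 on the log2 scale and 44 of those that fell differed by over 2, while the median of all genes tested was -0.10. The split between lower and higher calls moved with the setting: it was 331 and 83 with DESeq2, 215 and 63 with no filter, 148 and 73 among genes with a mean of at least 50 CPM, and 151 and 107 with limma voom and quality weights. Of the 82 genes that fell, 52 (63.4%) belong to a gene list used here, as do 8.28% of all genes tested, but the lists were chosen with results of these data known. Of the 82 genes that fell, 75 had all 4 hepatectomy KO libraries below all 4 sham KO libraries, a pattern that 4.34% of all genes tested showed, and 5 of the 7 that rose had the opposite pattern, shown by 2.12%. A larger share of abundant genes passed: of 2875 genes with a mean of at least 50 CPM, 2.57% fell and 0.243% rose.

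**Figure D1:**
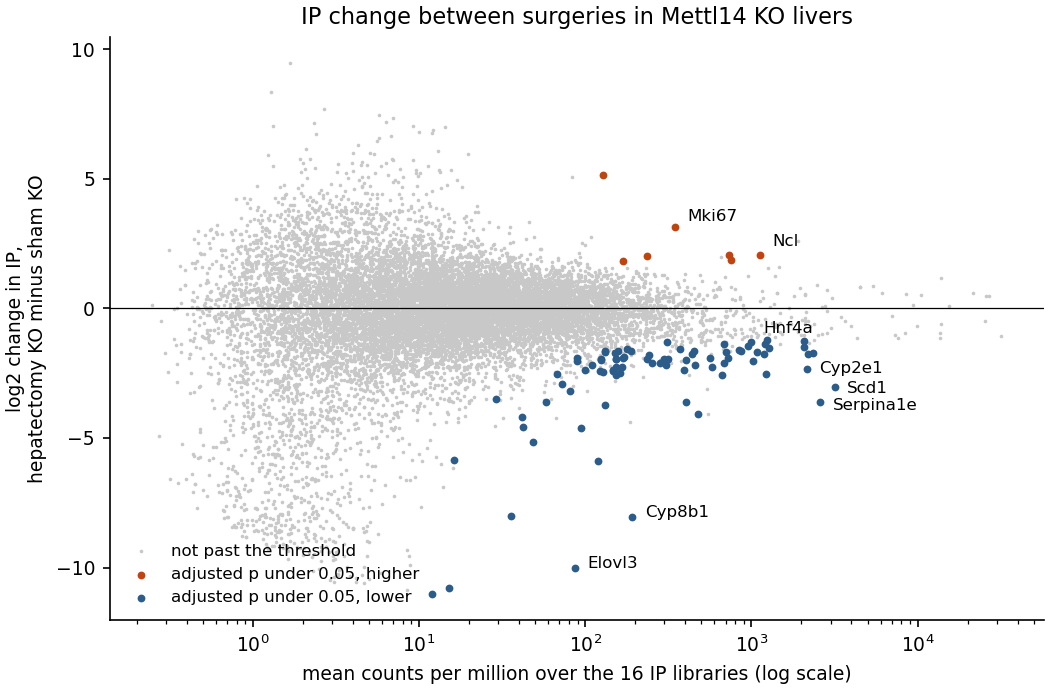
Each point is a gene, placed by its mean level over the 16 IP libraries (CPM, log axis) and by its log2 change in IP, hepatectomy KO minus sham KO. The 82 genes that fell (blue) lie mostly at the abundant end, and 7 genes rose (orange).

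The number of calls moved with single libraries. It was 49, 134, 35 and 253 without hepatectomy KO replicate 1, 2, 3 and 4 in turn, and 37 and 56 without sham KO replicate 2 and 3. Without replicate 4 of all 4 groups, a setting chosen after seeing the data, 216 genes passed, 180 of them lower and 36 higher, and 78 of the 89 were among them. With the 8 KO IP libraries alone, whose fit does not share its spread with the flox libraries, 9 genes passed, 8 of them among the 89. In bulk liver, fewer cells of a type and less RNA per cell cannot be told apart.

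The smallest p-value was that of Elovl3 (ENSMUSG00000038754, chromosome 19), an elongase of very long chain fatty acids. It had 0.0582, 0, 0.0606 and 0.14 CPM in hepatectomy KO IP libraries, against 65.5, 86.6, 65.2 and 5.19 CPM in sham KO IP libraries. The hepatectomy KO libraries together held 3 counts of it and the sham KO libraries 3707, a level 1004-fold higher in sham KO with a 95% counting interval of 343 to 4869. Its adjusted p was 2e-06 by edgeR's quasi-likelihood test, and the groups did not overlap, although sham KO replicate 4 was low. With limma voom and quality weights its adjusted p was 0.054. Scd1, the desaturase that makes monounsaturated fatty acids, had 1040, 1050, 153 and 1370 CPM in hepatectomy KO, against 6690, 4980, 9050 and 7310 CPM in sham KO. All 4 hepatectomy KO libraries lay below all 4 sham KO libraries, and Scd1 fell by 3.03 ± 0.51 (SE) on the log2 scale (edgeR adjusted p = 0.0038).

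Of 27 tested genes of fatty acid synthesis and lipid storage, these 2 fell and none rose, and the list's median was -1.50. The synthase Fasn (log2 change -1.56, edgeR adjusted p = 0.087) and the carbohydrate-sensing factor Mlxipl (-1.84, adjusted p = 0.09) did not pass. Among 31 genes of fatty acid oxidation and ketogenesis 4 fell, with a list median of -0.52. Among them were the acyl-CoA synthetase Acsl1 and the nuclear receptor Ppara, which switches on many genes of this pathway. Acsl1 had 359, 360, 101 and 292 CPM in hepatectomy KO, against 631, 821, 1180 and 578 CPM in sham KO, with no overlap (log2 change -1.65 ± 0.39, SE, edgeR adjusted p = 0.046). Acsl1 passed in only 10 of 19 alternative settings. In Ppara the groups overlapped, since hepatectomy KO replicate 4, at 147 CPM, lay above sham KO replicate 1, at 138 CPM.

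Bile acid genes were also among those that fell. Cyp8b1 (ENSMUSG00000050445, chromosome 9) encodes the sterol hydroxylase that sets the share of cholic acid in bile. It had 0.0582, 3.74, 0 and 0 CPM in hepatectomy KO IP libraries, against 117, 282, 419 and 140 CPM in sham KO IP libraries (edgeR adjusted p = 0.00014). Of 24 genes of bile acid synthesis and transport 4 fell and none rose, with a list median of -1.03. The others were Slco1b2, a basolateral uptake carrier (log2 change -1.78), Slc27a5, which couples bile acids to coenzyme A (-2.44), and Cyp27a1, another sterol hydroxylase (-1.71). The count of this list was 1 without hepatectomy KO replicate 1 or 3 or sham KO replicate 2, 2 without hepatectomy KO replicate 2 or sham KO replicate 4, and 7 without hepatectomy KO replicate 4.

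Cyp8b1 and Slc3a1, the heavy chain of a cystine and dibasic amino acid transporter, are shown with their promoters because of the genes that fell and have a promoter in the table, only their promoters held the letters CAAAGTCCA, a binding sequence of the hepatocyte factor HNF4A. Both sequences are RefSeq promoters of GRCm38.p6, running from 250 bases before to 50 bases after the start and printed 5′ to 3′ with those letters in capitals.
Cyp8b1, chr9:121916256-121916555, minus strand: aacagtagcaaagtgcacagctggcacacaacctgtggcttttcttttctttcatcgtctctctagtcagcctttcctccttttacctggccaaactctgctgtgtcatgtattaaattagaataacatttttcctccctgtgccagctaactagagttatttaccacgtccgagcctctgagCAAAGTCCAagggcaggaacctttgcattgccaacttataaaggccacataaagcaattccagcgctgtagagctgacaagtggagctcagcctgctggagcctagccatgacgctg
Slc3a1, chr17:85028097-85028396, plus strand: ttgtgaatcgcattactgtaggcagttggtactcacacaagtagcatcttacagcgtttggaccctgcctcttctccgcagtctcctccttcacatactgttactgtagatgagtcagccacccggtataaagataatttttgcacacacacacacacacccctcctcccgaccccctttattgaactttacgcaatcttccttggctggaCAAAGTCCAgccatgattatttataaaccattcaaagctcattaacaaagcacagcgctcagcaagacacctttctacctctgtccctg
The letters begin 67 bases before the start in Cyp8b1 and 39 bases before it in Slc3a1. They were searched on both strands and stood in 2 of 65 promoters (3.08%) of the 55 genes that fell and have a promoter in the table, in 0.57% of the 12696 promoters of genes tested and in 0.47% of all 32851 promoters. Among the other motifs searched, an HNF1 motif stood in 1 promoter of the genes that fell (1.54%), that of Ugt1a1, and in 0.37% of those of genes tested. TTGNGCAA (C/EBP) stood in 4 (6.15%) and in 2.63%. The 4 include overlapping promoters of Cyp3a25 that hold the same site, so fewer genes than promoters carry it. With so few promoters these shares are a description only. A PPAR direct repeat stood in 0% and 0.039%, TATAAA (the TATA box) in 24.62% and 7.95%, and CCAAT in 35.38% and 37.67%. A match is a description of letters and not of a bound site.

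Enzymes of drug and steroid metabolism formed the group with the most calls. Of 66 tested cytochrome P450 and phase II genes 11 fell, which is 16.7%, and none rose, and the list median was -1.15. Among its 50 members at 50 CPM or more 10 fell. At an unadjusted p under 0.05, 32 members were lower and 1 was higher, where 7.08% of all genes tested were lower. Cyp2e1, the ethanol-oxidising P450 of the pericentral zone, had 233, 401, 201 and 993 CPM in hepatectomy KO, against 2400, 2320, 1660 and 2200 CPM in sham KO (log2 change -2.34 ± 0.39, SE, edgeR adjusted p = 0.0034). Cyp2f2, a P450 of the periportal zone, had 133, 242, 48.9 and 195 CPM in hepatectomy KO, against 624, 785, 650 and 704 CPM in sham KO. In both genes the groups were fully apart, and hepatectomy KO replicate 3 was the lowest library. Cyp2c29 (log2 change -2.57) and the carboxylesterases Ces3b (-5.89) and Ces1d (-4.20) also fell, though Ces1d passed in only 10 of 18 alternative settings. Ces3b was at 0.116, 0.103, 7.82 and 0 CPM in hepatectomy KO, against 153, 158, 76 and 61.5 CPM in sham KO. Leaving out 1 library put the count of P450 and phase II genes that fell between 5 (without hepatectomy KO replicate 3) and 21 (without hepatectomy KO replicate 4), with 6 without sham KO replicate 2, and it was 20 without replicate 4 of all groups.

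Genes of both liver zones were among those that fell. Of 16 periportal genes 6 fell, with a median of -1.21: Cyp2f2, Gls2, the IgA receptor Pigr, Pck1, Mup20 and the histidine lyase Hal. Of 17 pericentral targets of Wnt signalling 1 (5.88%) fell, Cyp2e1, and the list median was -0.47. Of all genes with a mean of at least 50 CPM, 2.57% fell. Cyp1a2, another pericentral P450, did not pass (log2 change -1.42, edgeR adjusted p = 0.078), and sham KO replicate 2 lay within the range of the hepatectomy KO libraries. The periportal count was 1, 2, 2 and 3 without hepatectomy KO replicate 3, sham KO replicate 2, sham KO replicate 3 and hepatectomy KO replicate 1 in turn, and the pericentral count was 3 without hepatectomy KO replicate 4 and 2 without sham KO replicate 2. Whether the lists of both zones differed from each other was not tested.

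Amino acid breakdown gave the next most calls. Of 37 tested genes of the urea cycle and amino acid breakdown 9 fell, which is 24.3%, and none rose, and the list median was -1.39. Gnmt, which methylates glycine and so drains S-adenosylmethionine, had 102, 128, 73.9 and 150 CPM in hepatectomy KO, against 398, 586, 577 and 673 CPM in sham KO, with no overlap (log2 change -2.39 ± 0.33, SE, edgeR adjusted p = 0.00047). The members of smallest p after it were Ahcy, which cleaves S-adenosylhomocysteine (-2.20), Hpd, an enzyme of tyrosine breakdown (-1.62), and the glutaminase Gls2 (-2.55). Mat1a, the S-adenosylmethionine synthetase of hepatocytes, also fell (log2 change -2.09) and is named here after its value was seen. Without 1 library the count of this list was 2 (without hepatectomy KO replicate 3) to 12 (without hepatectomy KO replicate 4), and it was 3, 4 and 6 without sham KO replicate 2, hepatectomy KO replicate 1 and sham KO replicate 3.

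Glucose production gave fewer calls. Of 24 genes of gluconeogenesis and glycogen 2 fell, with no member above 0. The list median was -1.17, beside -0.10 for all genes tested. Pck1, which commits carbon to new glucose, had 1160, 1430, 401 and 606 CPM in hepatectomy KO, against 1470, 2400, 3220 and 4170 CPM in sham KO. The groups were close at their edges, 1430 against 1470 CPM (log2 change -1.71 ± 0.38, SE, edgeR adjusted p = 0.03). Ppp1r3b, which directs a phosphatase to glycogen, also fell (edgeR adjusted p = 0.023), and the glucose phosphatase G6pc (log2 change -1.31) did not pass. No member passed without hepatectomy KO replicate 3, sham KO replicate 2 or sham KO replicate 3, and 1 did without either hepatectomy KO replicate 1 or sham KO replicate 4.

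**Figure D2:**
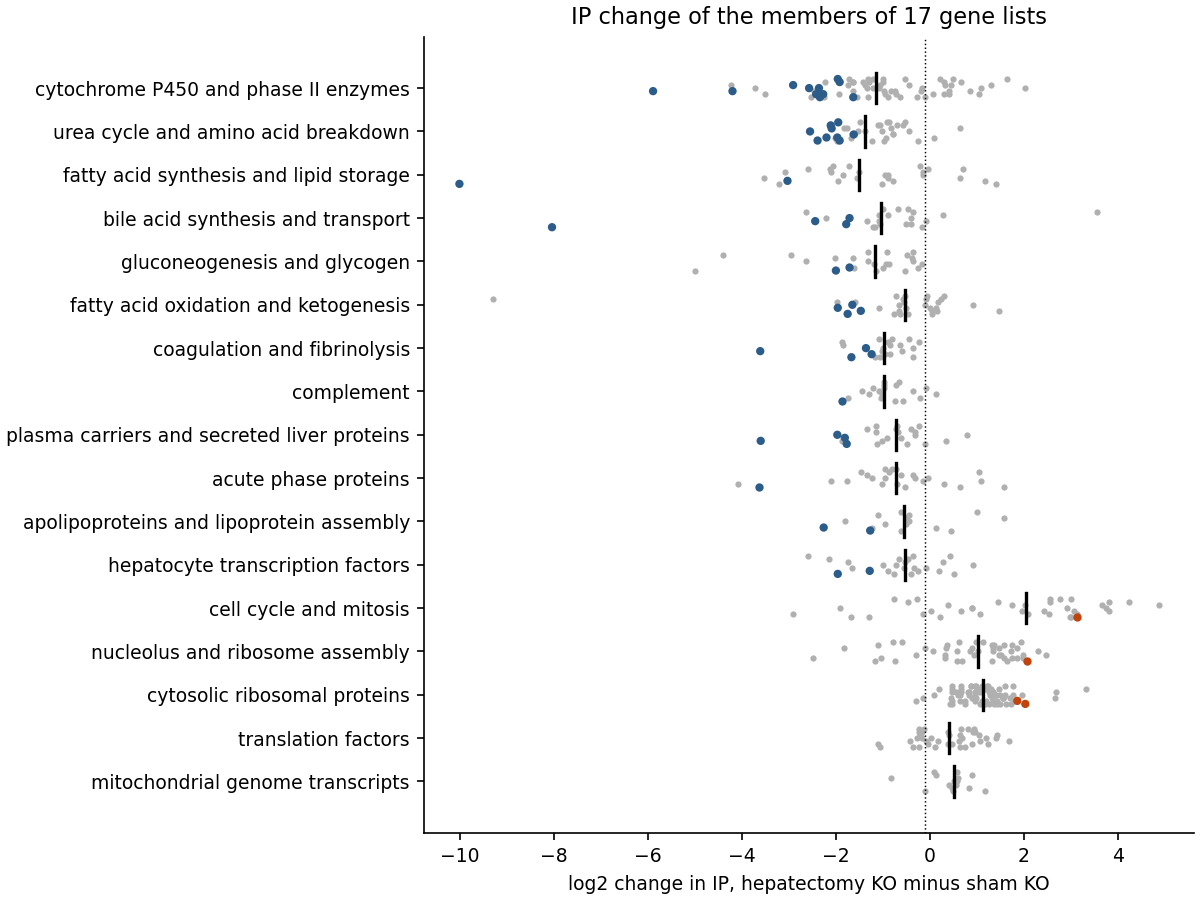
Each point is a tested member of 1 of 17 gene lists, placed by its log2 change in IP, hepatectomy KO minus sham KO. Coloured points passed the threshold (blue lower, orange higher), thick bars are list medians, and the dotted line is the median of all genes, -0.10. The 12 lists of liver functions and liver factors drawn have medians from -1.50 to -0.52. The 5 drawn lists of growth genes and mitochondrial genome transcripts have medians from 0.40 to 2.05. The 17 were picked from 51 lists, so the gap between them depends on that choice. Lists left out include cholesterol synthesis and uptake (median -0.43), pericentral targets (-0.47), nuclear oxidative phosphorylation (-0.05), periportal genes (-1.21) and major urinary proteins (-1.60).

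Genes of secreted proteins fell as well. Of 22 coagulation and fibrinolysis genes 4 fell and none rose. All 22 had a change below 0, with a median of -0.97, beside -0.10 for all genes tested. These were the adhesion protein vitronectin Vtn (-1.67), kininogen Kng1 (-1.24), plasminogen Plg (-1.36) and factor VII, F7. F7 had 0, 13.5, 9.27 and 4.63 CPM in hepatectomy KO, against 41, 95.4, 99.6 and 68.9 CPM in sham KO (log2 change -3.61 ± 0.84, SE, edgeR adjusted p = 0.042). Without hepatectomy KO replicate 3 or sham KO replicate 2 no member passed, without hepatectomy KO replicate 1 or sham KO replicate 4 there were 2, and without hepatectomy KO replicate 4 there were 8.

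The 3 fibrinogen chains, which form the clot, did not pass the threshold. Fga had 14800, 15800, 9710 and 24000 CPM in hepatectomy KO, against 24800, 35900, 40800 and 21400 CPM in sham KO (log2 change -1.06 ± 0.33, SE, edgeR adjusted p = 0.19). Its groups overlapped through both replicates 4. Fgb had 3960, 4460, 3010 and 5590 CPM in hepatectomy KO, against 7680, 12600, 7990 and 6310 CPM in sham KO, with no overlap (-1.16 ± 0.32, adjusted p = 0.092). Fgg overlapped, at 2300, 2040, 1320 and 5070 CPM in hepatectomy KO and 4100, 5860, 3550 and 2140 CPM in sham KO (-0.69 ± 0.39, adjusted p = 0.67). All 3 chains passed without replicate 4 of all groups, and the list median was then -1.50, against -1.06 with all libraries. In the IP of flox livers the chains had changes of 0.95 (Fga), 0.51 (Fgb) and 0.60 (Fgg), and the difference between genotypes did not pass (edgeR adjusted p of 0.18, 0.28 and 0.59).

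Plasma carriers and other secreted liver proteins had 4 falls among 23 genes, with a median of -0.73. Serpina1e, a paralogue of alpha-1-antitrypsin, had 164, 140, 54.8 and 426 CPM in hepatectomy KO, against 932, 4410, 2340 and 561 CPM in sham KO (log2 change -3.60 ± 0.58, SE, edgeR adjusted p = 0.0026). Serpina1d (-1.77), fetuin Fetub (-1.81) and the corticosteroid carrier Serpina6 (-1.97) also fell. Counts of Serpina1, carboxylesterase, Mup and Saa paralogues are uncertain, because reads that fit several near-identical genes could be split between them. Of 19 complement genes 1 (5.26%) fell, the protease C1s1 (-1.88), with a list median of -0.97. Of all genes with a mean of at least 50 CPM, 2.57% fell. Of 16 apolipoprotein genes 2 fell, Apoa2 (-1.27) and Apoh (-2.26), with a median of -0.55, and none fell without hepatectomy KO replicate 1, hepatectomy KO replicate 3 or sham KO replicate 2. The carrier count was 2 without hepatectomy KO replicate 3 or sham KO replicate 2 and 8 without hepatectomy KO replicate 4, and the complement count ran from 0, without hepatectomy KO replicate 3, sham KO replicate 1 or sham KO replicate 2, to 5 without hepatectomy KO replicate 4.

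Acute phase genes had a median of -0.73, and 1 of 25 (4.0%) fell. That is near the 2.57% that fell among all genes with a mean of at least 50 CPM. Saa1, a serum amyloid made in inflammation, had 3.55, 80.5, 18.1 and 85.8 CPM in hepatectomy KO, against 213, 734, 300 and 915 CPM in sham KO (log2 change -3.63 ± 0.87, SE, edgeR adjusted p = 0.049). All hepatectomy KO libraries were below all sham KO libraries. Saa1 did not pass without hepatectomy KO replicate 1 or 3 or sham KO replicate 2, 3 or 4. Its paralogue Saa2 had a larger change (-4.09) but did not pass (adjusted p = 0.072). The same list had a median of 1.10 in flox IP libraries, where Saa1 was at 1.56, and no member's difference between genotypes passed. Of 19 major urinary protein genes 3 fell, Mup16 (-4.59), Mup3 (-2.54) and Mup20 (-2.18), with a median of -1.60, and 9 fell without hepatectomy KO replicate 4. Mup3 passed in 18 of 19 alternative settings and Mup16 in 16 of 18, but Mup20 in only 8 of 19.

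Regulators of these pathways were among the genes that fell. Of 24 hepatocyte transcription factors 2 (8.33%) fell, Ppara and Hnf4a, with a median of -0.54. Of all genes tested 0.585% fell, and of those with a mean of at least 50 CPM 2.57% fell. Hnf4a, a nuclear receptor that maintains hepatocyte identity, had 601, 528, 314 and 671 CPM in hepatectomy KO, against 964, 1140, 1330 and 1430 CPM in sham KO (log2 change -1.28 ± 0.28, SE, edgeR adjusted p = 0.029). Its groups did not overlap, but it did not pass without hepatectomy KO replicate 1, 2 or 3 or sham KO replicate 2 or 3. Cebpa missed the threshold (-1.65, adjusted p = 0.062), with replicate 4 the highest of the hepatectomy KO libraries at 592 CPM. Of 18 clock genes 1 (5.56%) fell, Dbp, a clock-driven activator. It had 6.23, 13.9, 10.4 and 9.81 CPM in hepatectomy KO, against 31.9, 27.5, 144 and 160 CPM in sham KO. Dbp did not pass without hepatectomy KO replicate 1 or 3 or sham KO replicate 3 or 4, and the hour of sampling is not given in the sources used here. Of 28 genes of growth hormone, IGF and growth signals 1 (3.57%) fell, the chemokine Cxcl12 (-1.66). That share is near the 2.57%, and that list's median was near 0 (-0.12, and 0.01 with DESeq2 size factors).

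Other large falls lay outside those lists. Npr2, a receptor of natriuretic peptides, had 0.0582, 0.871, 0.182 and 0 CPM in hepatectomy KO, against 11.3, 21.9, 12.6 and 16.7 CPM in sham KO. Dio1, the deiodinase that activates thyroid hormone, had 0, 3.18, 0.121 and 0.14 CPM in hepatectomy KO, against 25.3, 38.6, 11.6 and 41.4 CPM in sham KO. In both genes all hepatectomy KO libraries lay below all sham KO libraries, and hepatectomy KO replicate 2 was the highest of its group. Upp2, a uridine phosphorylase, fell by 3.74 and the water channel Aqp11 by 3.51 on the log2 scale (edgeR adjusted p of 0.0048 and 0.034). Upp2 passed in 18 of 19 alternative settings, but Aqp11 in only 9 of 18. The genes 1700028E10Rik, Gm38455 and Serpina4-ps1 were chosen after their values were seen because all hepatectomy KO libraries were at 0. Against the floor of 3 counts over the group they were at least 298-fold, 296-fold and 41.7-fold lower, though sham KO replicates 2 and 3 were at 0 for Serpina4-ps1 as well. Single sham KO libraries held much of these counts: replicate 3 held 494 of 1100 for 1700028E10Rik and 811 of 1093 for Gm38455, and replicate 1 held 127 of 154 for Serpina4-ps1. Without that library the bounds were 218-fold, 101-fold and 9.45-fold.

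**Figure D3:**
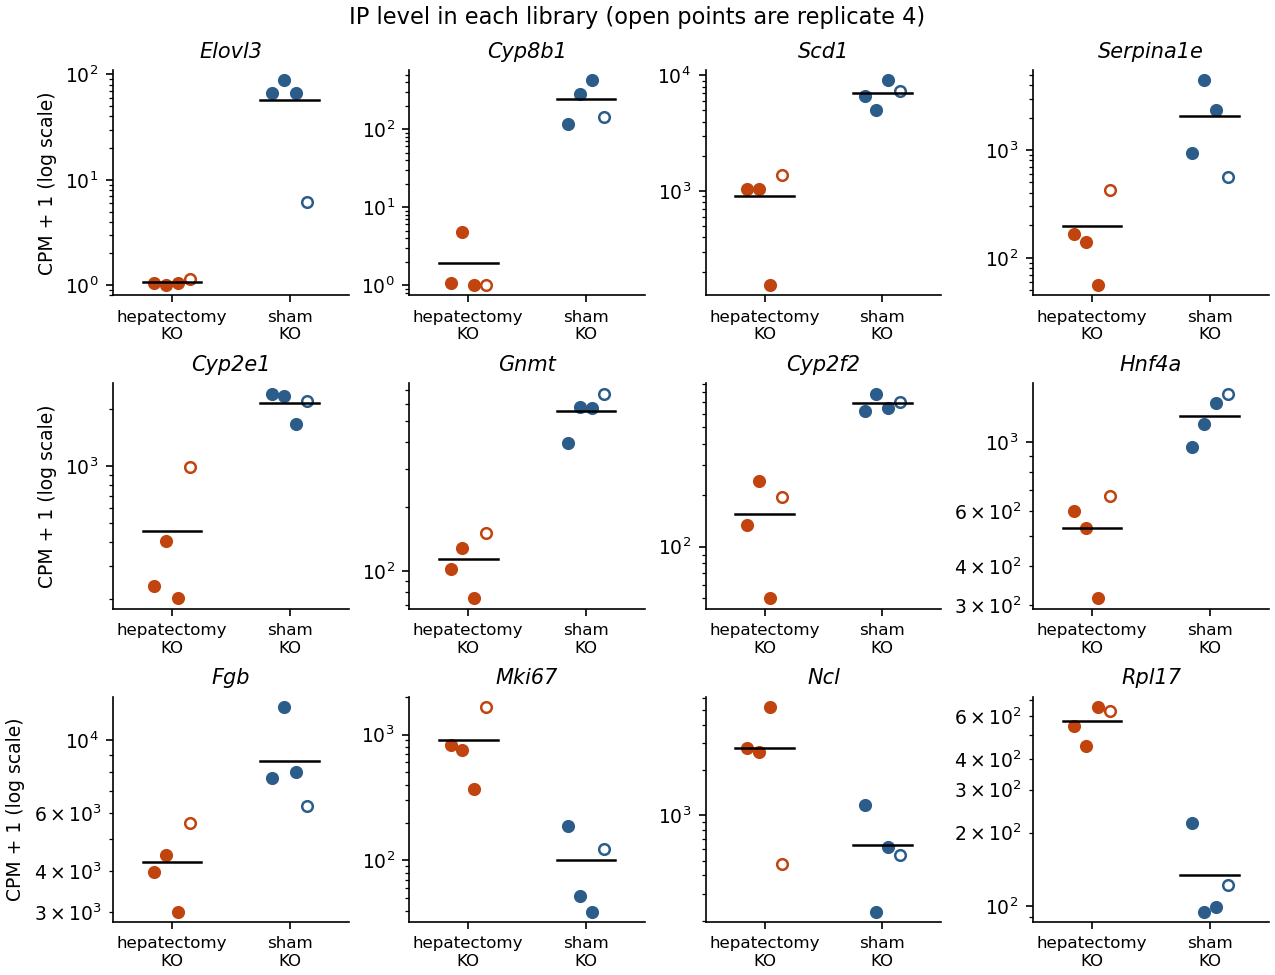
Each panel gives 1 gene's IP level in CPM + 1 (log axis) in the 4 hepatectomy KO libraries (left, orange) and the 4 sham KO libraries (right, blue), with bars at the group means and replicate 4 as an open point. The first 8 genes fell with no overlap, Fgb did not pass, and Mki67, Ncl and Rpl17 rose, Ncl with hepatectomy KO replicate 4 down among the sham KO libraries.

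Genes of cell division and ribosome building were on the other side, though few passed. Mki67, the proliferation marker that coats mitotic chromosomes, had 821, 747, 366 and 1660 CPM in hepatectomy KO, against 187, 51.3, 38.3 and 123 CPM in sham KO, with no overlap (log2 change 3.13 ± 0.69, SE, edgeR adjusted p = 0.03). It was the 1 member of 38 cell cycle and mitosis genes to rise, and none fell. The list median was 2.05, beside -0.10 for all genes tested, and 30 members were above 0. The list's summed level was 844 to 2970 CPM in hepatectomy KO and 243 to 629 CPM in sham KO. Cenpf, a kinetochore protein (2.53, adjusted p = 0.26), and Foxm1, a driver of mitotic genes (3.82, adjusted p = 0.42), did not pass. Foxm1 had 41.7, 37.7, 33.5 and 24.5 CPM in hepatectomy KO, against 2.2, 0, 0 and 8.23 CPM in sham KO. Without hepatectomy KO replicate 1, sham KO replicate 2, sham KO replicate 3 or sham KO replicate 4 no cell cycle gene passed, and Mki67 itself did not pass without replicate 4 of all groups, where another member did. Of 30 DNA replication genes none passed, with a median of 1.82, but only 1 of them reached a mean of 50 CPM.

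Of 81 cytosolic ribosomal protein genes 2 rose and 79 had a change above 0. The median was 1.12, beside -0.10 for all genes tested. The 38 members at an unadjusted p under 0.05 were all higher, which compares with 2.38% of all genes tested. Rpl17 had 545, 452, 653 and 628 CPM in hepatectomy KO, against 217, 94.1, 98.1 and 121 CPM in sham KO, with no overlap (log2 change 2.03 ± 0.40, SE, edgeR adjusted p = 0.012). Rpl21 rose by 1.86 but overlapped, with hepatectomy KO replicate 4 at 483 CPM and sham KO replicate 1 at 828 CPM. Rps6 (1.55, adjusted p = 0.053), Rps12 (1.96, adjusted p = 0.062) and Rpl28 (1.35, adjusted p = 0.064) came next and did not pass. The list's summed level was 16200, 16300, 26300 and 10100 CPM in hepatectomy KO, against 9150, 5430, 5040 and 8620 CPM in sham KO. In KO input all 81 members were tested, and the list median was 0.65, against 0.16 for all genes. The list's median of the IP change minus the input change was 0.37, against -0.45 for all genes. Ribosomal protein genes have many pseudogenes that share their reads, which makes single members uncertain. The number that rose was 12 without replicate 4 of all groups, 18 without hepatectomy KO replicate 4, 1 without hepatectomy KO replicate 1 or 3 or sham KO replicate 4, and 0 without sham KO replicate 2 or 3.

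A nucleolar gene also rose. Ncl, the nucleolin that handles ribosomal RNA, had 2790, 2650, 5250 and 477 CPM in hepatectomy KO, against 1170, 229, 617 and 542 CPM in sham KO (log2 change 2.07 ± 0.47, SE, edgeR adjusted p = 0.033). The first 3 hepatectomy KO libraries were above every sham KO library, and replicate 4 was below 3 of them. Ncl was the 1 riser among 47 genes of the nucleolus and ribosome assembly, whose median was 1.02, and the count was 0 without hepatectomy KO replicate 1 or 3 or sham KO replicate 2, 3 or 4 and 5 without hepatectomy KO replicate 4. Npm1 (1.98, adjusted p = 0.12) and Nop56 (1.98, adjusted p = 0.18) did not pass. No translation factor (39 genes, median 0.40) and no mitochondrial genome transcript (15 genes, median 0.51) passed by edgeR, where 5 and 2 of them had a higher level at an unadjusted p under 0.05. With limma voom and quality weights 5 translation factors and 7 mitochondrial transcripts were called higher, and with no filter 1 and 5. The share of mitochondrial counts was highest in hepatectomy KO replicate 3, which also had the highest summed ribosomal protein level. The part of the mitochondrial share in these results was not tested.

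The other genes that rose were Atpif1, an inhibitor of the mitochondrial ATP synthase, and Calu, a calcium-binding protein of the secretory pathway. Atpif1 had 2120, 1660, 2260 and 810 CPM in hepatectomy KO, against 758, 173, 333 and 326 CPM in sham KO (log2 change 2.05 ± 0.37, SE, edgeR adjusted p = 0.0055). Calu had 204, 227, 225 and 540 CPM in hepatectomy KO, against 143, 31.4, 72 and 78.8 CPM in sham KO (1.83 ± 0.43, adjusted p = 0.045). In both genes the groups were apart. Leaving out any 1 of the 8 libraries kept Atpif1 past the threshold, while Calu passed only without hepatectomy KO replicate 2 or sham KO replicate 1. Slfn9, a Schlafen family gene, had 316, 203, 76.5 and 427 CPM in hepatectomy KO, against 43, 13, 58.6 and 31.9 CPM in sham KO, and missed the threshold (2.74, adjusted p = 0.053). The seventh gene that rose, ENSMUSG00000075014, received no symbol and is named after its value was seen, at 172, 124, 133 and 1150 CPM in hepatectomy KO and 9.83, 16.4, 11.9 and 1.36 CPM in sham KO.

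No gene of the m6A machinery passed, where 0.585% of all genes tested fell and 0.0499% rose. In lists this small, no call is near those shares. Only 2 of the 13 writers and 8 of the 14 erasers and readers reached a mean of 50 CPM. The 13 tested writer genes had a median of -0.19 and the 14 erasers and readers of 0.05, and both medians changed sign or reached 0 in some settings that left out 1 library. The smallest p-values of the lists belonged to Wtap, the adaptor of the writer complex (log2 change 0.84, edgeR adjusted p = 0.67), and to the reader Hnrnpa2b1 (0.87, adjusted p = 0.46). Wtap had 77.7, 98.3, 80.9 and 170 CPM in hepatectomy KO, against 67.7, 22, 87.1 and 49.8 CPM in sham KO, and the groups overlapped.

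Markers of other liver cells gave no call in either direction, which in short lists is near the shares of all genes tested (0.585% fell, 0.0499% rose). The summed level of 14 Kupffer cell and macrophage markers averaged 1210 ± 362 CPM in hepatectomy KO and 882 ± 285 CPM in sham KO (SD, n = 4 each) and overlapped between the groups, with a median change of 0.07 over 14 tested. The 13 endothelial markers summed to 1200 to 2000 CPM and 963 to 1490 CPM, and the 13 stellate cell and fibroblast markers to 603 to 875 CPM and 417 to 989 CPM, with median changes of 0.29 and 0.05. Of the 9 adipocyte markers 5, Adipoq, Lep, Plin1, Cfd and Retn, were at 0 in all 8 libraries, and of the 12 neutrophil markers Ly6g was at 0. Cholangiocyte, lymphocyte, erythroid and pancreatic markers overlapped between groups in their sums, with at most 5 tested genes in each list. Their median changes were -2.04 for cholangiocytes, -4.49 for T, B and NK cells (2 of 5 lower at an unadjusted p under 0.05, and -4.22 with genes at 0 set at their bound), 0.17 for erythroid cells and -0.18 for pancreas, beside -1.11 for 5 neutrophil and 1.01 for 4 adipocyte markers tested. The 12 hepatocyte markers themselves had a median of -0.97 with 3 falls, and their sum was highest in hepatectomy KO replicate 4 of its group, at 74800 CPM. The part of the number of hepatocytes, or of any other cell type, in the results was not tested.

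For 4 genes the surgery change in KO livers differed from that in flox livers in the same IP fit, which is 0.0285% of the 14020 genes tested, and all 4 were lower in KO. The difference of the 2 log2 changes was -9.28 ± 1.12 for Elovl3 and -8.11 ± 1.22 (SE) for Cyp8b1 (edgeR adjusted p of 0.00013 and 0.0022). It was -5.54 ± 0.97 for Slc3a1 and -4.12 ± 0.61 (SE) for the pseudogene Gm8893 (edgeR adjusted p of 0.017 and 0.0022). Gm8893 lies between Serpina1d and Serpina1e on chromosome 12, and whether it shares reads with Serpina1 genes was not tested. Slc3a1 (ENSMUSG00000024131, chromosome 17) had 9.96, 7.89, 2.36 and 0.28 CPM in hepatectomy KO, against 29.4, 243, 99.8 and 79.3 CPM in sham KO. Its flox libraries held 197, 181, 167 and 128 CPM after hepatectomy and 75.9, 102, 122 and 68 CPM after sham. Gm8893 had 36.6, 23.3, 16.2 and 62.8 CPM in hepatectomy KO, against 385, 897, 285 and 542 CPM in sham KO, and its flox groups averaged 682 ± 106 CPM after hepatectomy and 677 ± 264 CPM after sham (SD, n = 4 each). In Elovl3 and Cyp8b1, too, the hepatectomy KO group alone lay near 0: Cyp8b1 averaged 263 ± 53.6 CPM in hepatectomy flox and 262 ± 118 CPM in sham flox. These 4 passed without each of the 16 IP libraries in turn, except that 1 of them was lost without sham KO replicate 2, sham flox replicate 1 or sham flox replicate 2. The count was 39 without hepatectomy KO replicate 4, 12 without hepatectomy KO replicate 2, 10 without sham flox replicate 4 and 7 without sham KO replicate 1.

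**Figure D4:**
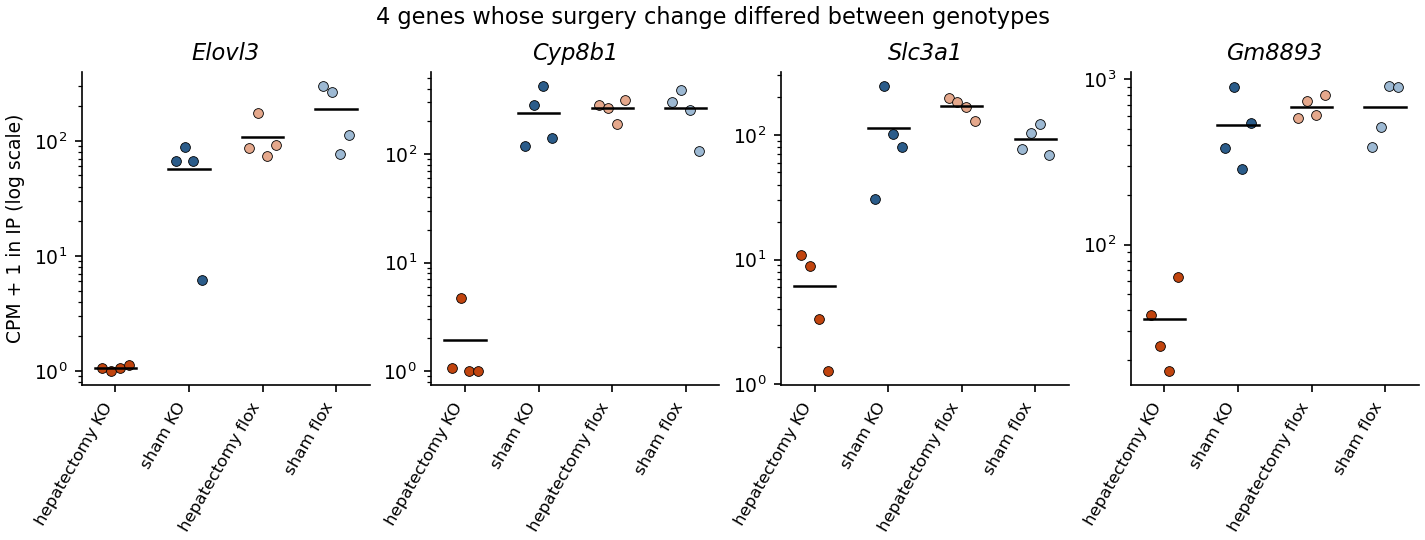
Points are IP libraries and bars are group means, in CPM + 1 on a log axis, for 4 genes. From left to right the groups are hepatectomy KO, sham KO, hepatectomy flox and sham flox. In each panel the 4 hepatectomy KO libraries lie below the other 12.

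The genes that fell in KO IP gave no call in flox IP, where calls were few over all genes. Of the 14020 genes tested there, 0 passed as lower and 4 (0.0285%) as higher. Of the 82, 12 were lower at an unadjusted p under 0.05 in flox IP and none was higher, where 2.75% of all genes tested were lower at that level and 4.19% higher. Their median change in flox IP was -0.42, against 0.05 for all genes. Scd1 was among the 12 (log2 change -1.14 in flox IP). Mki67 had a change of 3.45 in flox IP (edgeR adjusted p = 0.064), and its difference between genotypes was -0.32 ± 0.90 (SE). The cell cycle and mitosis list had a median of 4.19 in flox IP and 2.05 in KO IP. Only 3 of its 38 tested members reached a mean of 50 CPM. The ribosomal protein list had a median of -0.30 in flox IP, and the difference between genotypes passed for none of its members.

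The input libraries of the same livers gave few calls. Between surgeries in KO input, 2 of 8769 genes passed, 1 lower and 1 higher (each 0.0114%), and 239 had an unadjusted p under 0.05. The gene that fell was Scd1, at 1010, 992, 573 and 1560 CPM in hepatectomy KO input, against 3400, 1430, 4800 and 2690 CPM in sham KO input (log2 change -1.59 ± 0.28, SE, edgeR adjusted p = 0.0031). The one that rose, ENSMUSG00000097971, received no symbol (1.10 ± 0.22, adjusted p = 0.021). Of the 82 genes that fell in IP, 81 were tested in input: 68 were below 0, with a median of -0.37 against 0.16 for all genes, 4 were lower at an unadjusted p under 0.05 and none was higher. Over all genes 1.45% were lower and 1.28% higher at that level in input. Mki67 had an input change of 0.02, Cyp8b1 of -0.91 and Elovl3 of 0.69, none past the threshold. Input and IP libraries were made with different kits, a stranded poly(A) kit and an RNA kit on fragmented total RNA, so kit and immunoprecipitation cannot be told apart between them.

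**Figure D5:**
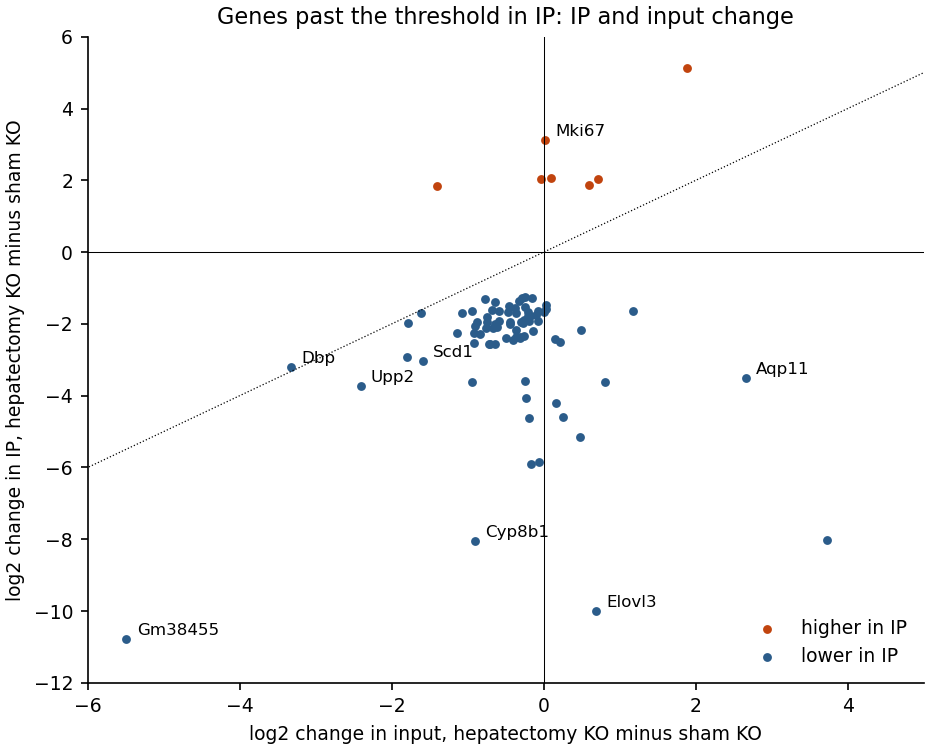
Each point is a gene past the threshold in IP that was also tested in input, placed by its log2 change in input (horizontal) and in IP (vertical), both hepatectomy KO minus sham KO. The dotted line marks equal change. Of the 81 genes that fell in IP and were tested in input, most lie below the line. Dbp lies close to it, with an input change that rests mostly on sham KO replicate 1.

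The IP change differed from the input change for 5 genes, all lower in IP, of 14328 tested (0.0349%). No gene passed with upper-quartile factors (1676 at an unadjusted p under 0.05), and with limma voom only Cyp8b1 of the 5 did. The difference was -3.33 ± 0.53 for Serpina1e, -7.19 ± 1.35 for Cyp8b1, -10.52 ± 2.02 for Elovl3, -2.07 ± 0.43 for Cyp2e1 and -3.81 ± 0.79 (SE) for Gm8893 (edgeR adjusted p of 0.00047, 0.011, 0.011, 0.029 and 0.029). With the animal as a block, since both libraries of an animal come from 1 liver, 25 genes passed, 18 lower and 7 higher, the 5 among them. Per liver, the log2 ratio of IP to input CPM (with 1 CPM added to both) was -8.70, -6.23, -7.46 and -5.88 for Elovl3 in hepatectomy KO, against -0.29, -1.86, 0.26 and 1.84 in sham KO. For Serpina1e it was -3.86, -4.37, -6.21 and -3.13 in hepatectomy KO, against -2.18, 0.13, -0.95 and -2.41 in sham KO. Each hepatectomy KO liver was below each sham KO liver in both genes. The count was 2 or 3 without hepatectomy KO animal 1 or 3 or sham KO animal 1 or 2, and 8 and 14 without hepatectomy KO animals 2 and 4.

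Not all falls in IP exceeded the estimated change in input, though some input levels were near 0. Dbp fell by 3.20 in IP and had a change of -3.33 in input (edgeR adjusted p = 1.0), and the difference was 0.14 ± 2.29 (SE). Dbp had 4.16, 0, 0 and 1.44 CPM in hepatectomy KO input, against 51, 0, 0.196 and 5.01 CPM in sham KO input. Its input change thus rested mostly on sham KO replicate 1. Aqp11 fell by 3.51 in IP beside an input change of 2.66, and Upp2 by 3.74 beside -2.41, with neither input change nor either difference past the threshold. The input change of Aqp11 rested mostly on hepatectomy KO replicate 4, at 90.4 CPM. Of the 82 genes, 81 had a difference below 0, with a median of -1.57 against -0.45 for all genes. At an unadjusted p under 0.05, 41 of them had a lower difference, as 7.23% of all genes did, and 4 of the 7 genes that rose had a higher one, as 4.66% of all genes did. The difference between genotypes was lower at that level for 69 of the 82, against 5.39% of all genes, and higher for 6 of the 7, against 2.49%. Since their KO IP values chose these genes, these counts are a description and no test. Input libraries were uneven for some of them: Slc3a1 had 0.0816, 159, 192 and 0 CPM in hepatectomy KO input, against 0.796, 135, 170 and 98.8 CPM in sham KO input.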

How the data were processed

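The deposited table holds estimated counts per Ensembl gene from the authors, not normalised, and 1.9% to 8.22% of the values in the KO IP libraries, zeros included, were not whole, so all were rounded. Processing named fastp and STAR, per the submitters' processing notes, which assign them no role. Their versions, the counter and the build were not given in the sources used here. Per the labels' protocols, IP RNA was fragmented to about 100 nucleotides. Of 55421 genes, 36233 were named by matching positions to RefSeq genes of GRCm38.p6, and named genes hold 94.8% of counts. After a shift of 1000000 bases 633 matched.

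Genes were tested with edgeR 4.0.16 in R 4.3.3 (quasi-likelihood test, TMM, filterByExpr with a minimum count of 10, Benjamini-Hochberg threshold 0.05). IP tests used all 16 IP libraries, input tests all 16 input libraries, and the IP against input test all 32. DESeq2 1.42.0 and limma 3.58.1 gave alternatives, and the model fits were tested on simulated data. Named were Mettl14 and the fibrinogen chains, up to 15 genes each way of largest change whose groups did not overlap (filled up to 8 by p-value), up to 4 genes per described list, all called ones where 6 or fewer were, and up to 5 each way in other tests. The members and the 51 gene lists were chosen with earlier results of these data known. The edgeR p-values weigh a difference between groups against the spread within groups, estimated over all libraries of a fit with information shared across genes. Amplified reads may copy 1 molecule, so the intervals and floors hold only counting error. Some genes that the rule names are not reported here.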

Additional observations from a re-analysis of the deposited data

Results flagged for a closer look

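Some samples stood far from the other 3 of their group, by Dixon's test at its 95% critical value for 4 samples. Of 60 groups examined 9 were of this kind, and chance gives about 1 in 20. Sham KO replicate 4 had 16846 genes with at least 10 counts in IP. In hepatectomy KO IP libraries, Calu was at 540 CPM and stood high in replicate 4, Rps12 was at 430 CPM and stood high in replicate 3, and Scd1 was at 153 CPM and stood low in replicate 3. In the same group Cyp8b1, Dio1 and Mettl14 were high in replicate 2, at 3.74, 3.18 and 3.08 CPM, and Ces3b was high in replicate 3, at 7.82 CPM. Elovl3 was low in sham KO replicate 4, at 5.19 CPM.

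The surgery change in IP differed between KO and flox livers by the interaction test for 4 genes. The KO change minus the flox change was -9.28 for Elovl3, -8.11 for Cyp8b1, -5.54 for Slc3a1 and -4.12 for Gm8893 on the log2 scale.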

How the results depend on the processing

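The number of genes past the threshold in IP, hepatectomy KO against sham KO, was 89 and ran from 35 to 253 when 1 library was left out. It was 54 with library totals only, 278 with no filter, 221 among genes with a mean of at least 50 CPM, 414 with DESeq2, 258 with limma voom and quality weights, 9 with the 8 KO IP libraries alone, 491 with animals aged 73 days only and, in a setting added after seeing the data, 216 without replicate 4 of any group. DESeq2 size factors (71) and upper-quartile factors (115) stayed within 1.5 times. The KO against flox count of 4 was 81 with no filter, 268 with DESeq2, 79 with voom, and 3 to 39 with 1 library left out. The input count of 2 was 1 with upper-quartile factors, 5 with no filter, 148 with DESeq2, 6 with voom, 0 among genes of at least 50 CPM (edgeR, 38 at an unadjusted p under 0.05), and 2 to 9 with 1 library left out. The IP against input count of 5 was 3 with DESeq2 size factors, 0 with upper-quartile factors (edgeR, 1676 at an unadjusted p under 0.05), 16 with no filter, 1611 with DESeq2, and 2 to 14 with 1 animal left out. The median of all genes in that test was -0.45, and -0.06 with upper-quartile factors. The Mettl14 difference changed sign without sham KO replicate 2, to 0.0555 CPM and 0.21 on the log2 scale, and with 1 library left out it ran from -1.17 to 0.0555 CPM and from -7.19 to 0.21 on the log2 scale. Of the 52 genes named and called in IP, all 52 had the same sign in every alternative, and 3 (Cyp8b1, Gnmt and Scd1) passed in every one. The alternatives refit the same libraries for genes picked as past the threshold, so a kept sign is a description and no test. The causes of the moves in the counts were not tested. Settings that left out libraries or changed the filter also changed how many libraries or which genes entered the fit.

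The labels do not state whether replicate numbers pair hepatectomy with sham animals. Deviations of same-numbered IP libraries correlated at 0.04, 0, -0.07 and -0.13. Libraries of the same animal also correlated near 0 (below), so this measure cannot show whether replicate numbers pair animals. With the replicate block 102 genes passed in IP (76 of the 89), 4 in the KO against flox test and 6 in input. IP and input libraries of 1 animal are paired by the labels, although their deviations correlated at only -0.05 to 0.1, and with the animal as replicate block 25 genes passed in IP against input. Hepatectomy KO replicate 4, with the lowest depth, limits what low-count genes can show.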
